A study of Mus musculus with 23 samples.

Results

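The 57 genes described here encode the receptors through which serotonin, noradrenaline, dopamine, histamine, acetylcholine and adenosine act on neurons. They were taken by mouse gene symbol alone, from 45706 gene identifiers in the count table; the rule uses no measured value, although results of these data were known when it was written. There were 14 serotonin receptor genes (Htr), 9 for noradrenaline (Adra, Adrb), 5 for dopamine (Drd), 4 for histamine (Hrh), 4 for adenosine (Adora), 5 for muscarinic acetylcholine receptors (Chrm) and 16 for nicotinic acetylcholine receptor subunits (Chrn). Of these, 50 had enough reads to be tested. The 7 others (Adora3, Chrnb4, Chrne, Drd3, Drd4, Hrh4 and Htr3b) averaged at most 0.0661 reads per 1000000 reads in genes (CPM) in any WT group, and Hrh4 had no read in any library.

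PolyA-enriched RNA of mouse hippocampus was sequenced from 3 neuronal populations, which the sample names call CamK, Grik and SST. By the labels CamK and Grik are excitatory pyramidal neurons and SST are interneurons positive for somatostatin, and the design places the pyramidal populations in hippocampal fields CA1 and CA3. Each population came as libraries labelled WT for SLM2 and as libraries labelled SLM2 cKO, a conditional knockout of an RNA-binding protein that regulates splicing (gene symbol Khdrbs3). The groups were 4 CamK WT, 3 CamK cKO, 4 Grik WT, 4 Grik cKO, 4 SST WT and 4 SST cKO libraries. The sources used here do not give the strain, age and sex of the mice, the Cre lines, the deleted exons or how cells or RNA were isolated. The labels do not say whether libraries of 1 group came from separate animals, so p-values measure the spread between these libraries.

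Most of these receptors are G protein-coupled. Receptors that couple to Gs raise cyclic AMP, those that couple to Gi lower it and damp transmitter release, and those that couple to Gq mobilise calcium. Nicotinic receptors and the serotonin 5-HT3 receptor are instead ion channels built from subunits, and the subunit mix sets which ligands and ions they respond to. In the hippocampus, the monoamines and acetylcholine come mainly from fibres of distant nuclei, while adenosine is formed locally from released ATP.

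The libraries held 87612006 to 112993538 reads in genes, and 3 reads, used here as a detection floor, correspond to 0.0266 to 0.0342 CPM. Libraries are named by group and the number in their title. Summed CA1, CA3 and inhibitory markers were highest in CamK, Grik and SST respectively, though not confined to them. Of the 5 CA3 markers, 4 were called higher and 1 lower in Grik WT than in SST WT. The lower one was Coch, with a mean of 5.15 CPM in Grik WT and 11.1 in SST WT. The summed CPM of 5 CA1 markers was 1170 to 1610 in CamK WT, 63.2 to 99.4 in Grik WT and 393 to 408 in SST WT, and that of 5 CA3 markers 160 to 191, 839 to 911 and 92.5 to 131. Grik also held markers of mossy cells of the dentate hilus, whose 3 genes summed to 315 to 350 CPM there against 7.68 to 16.2 in CamK WT and 30.7 to 52.2 in SST WT, all 3 called higher in Grik in both contrasts. Calb2 carried that sum, at 311 to 347 CPM in Grik WT. The part of mossy cell RNA in the members highest in Grik (Htr4, Htr6, Adra1d, Adora1 and Chrna1) was not tested. The inhibitory marker Gad1 was at 2550 to 3090 CPM in SST WT and at no more than 87.3 in the other WT groups. Excitatory markers were not absent from SST WT: Slc17a7 stood at 8.72% of its CamK level and Camk2a at 17.9%. Markers of other cells differed between the WT populations too. In the order CamK, Grik and SST, oligodendrocyte markers summed to 144 to 219, 684 to 924 and 296 to 672 CPM, astrocyte markers to 9.01 to 21, 50.9 to 60.9 and 53.6 to 105, endothelial markers to 0.656 to 1.12, 1.28 to 2.83 and 6.26 to 24.4, and dentate granule markers to 171 to 375, 186 to 199 and 35.9 to 48.7. With a non-neuronal marker score as covariate, edgeR called 27 members between CamK and Grik, 33 between CamK and SST and 37 between Grik and SST. Without the covariate the counts were 33, 35 and 36. The share of all genes called with it is not given here. Among the members described in full the call of Drd2 between CamK and Grik alone was lost, and its fold change kept its direction. Sst itself was uneven, at 1720.0, 159, 554 and 1560.0 CPM in the SST WT libraries. Counts of the targeted gene went against 1 label, since Khdrbs3 was at 414 ± 18.0 CPM (SD, n = 4) in Grik cKO and 336 ± 8.61 in Grik WT, whereas it was lower in cKO in CamK (278 ± 25.1 against 373 ± 27.0) and SST (93.8 ± 10.5 against 130 ± 8.31). Its paralogue Khdrbs2 was at 21.1 ± 1.02 CPM in Grik cKO and 4.69 ± 0.654 in Grik WT, and its mean was also higher in cKO in CamK (40.2 ± 3.31 against 14 ± 0.699) and SST (16 ± 3.66 against 10.7 ± 0.921). The libraries are therefore called labelled cKO below. Reads over a deleted exon cannot be separated from the rest in a count per gene.

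The DNA just upstream of 4 receptor genes with large differences between populations is shown first. Chrna2 and Chrnb3, whose differences were wider still, are not among the windows used here. RefSeq start sites on GRCm38.p6 were available for 43 of the 57 genes, as 53 windows of 250 bases. Each sequence is the strand of the gene, 5′ to 3′, and ends at the base before the start. Capitals mark the GC box GGGCGG or its reverse complement. Chrna5 has 2 listed starts, and Htr1b and Chrna5 had the largest CamK excess over Grik, while Chrm2 and Drd2 were highest in SST.
Htr1b, chr9:81633833-81634082, minus strand: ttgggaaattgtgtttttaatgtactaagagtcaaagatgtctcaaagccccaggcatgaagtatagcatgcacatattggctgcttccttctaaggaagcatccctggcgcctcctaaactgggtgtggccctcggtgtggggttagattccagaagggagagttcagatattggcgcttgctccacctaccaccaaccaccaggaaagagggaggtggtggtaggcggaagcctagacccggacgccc
Chrna5 first start, chr9:54980630-54980879, plus strand: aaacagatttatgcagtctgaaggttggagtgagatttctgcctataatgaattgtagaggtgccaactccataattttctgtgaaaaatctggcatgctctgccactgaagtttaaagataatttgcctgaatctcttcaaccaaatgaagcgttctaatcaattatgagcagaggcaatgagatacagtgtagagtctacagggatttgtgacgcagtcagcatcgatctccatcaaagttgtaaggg
Chrna5 second start, chr9:54981238-54981487, plus strand: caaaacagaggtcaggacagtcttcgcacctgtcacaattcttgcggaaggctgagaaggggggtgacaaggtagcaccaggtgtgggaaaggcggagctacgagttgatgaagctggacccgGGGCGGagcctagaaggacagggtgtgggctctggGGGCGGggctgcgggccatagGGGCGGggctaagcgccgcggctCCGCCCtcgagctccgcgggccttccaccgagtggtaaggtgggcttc
Chrm2, chr6:36387834-36388083, plus strand: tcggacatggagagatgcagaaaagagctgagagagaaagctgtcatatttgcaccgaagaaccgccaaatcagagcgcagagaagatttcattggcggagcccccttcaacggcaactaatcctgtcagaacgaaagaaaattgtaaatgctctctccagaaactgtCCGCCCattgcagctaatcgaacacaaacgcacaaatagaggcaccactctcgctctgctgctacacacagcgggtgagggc
Drd2, chr9:49340153-49340402, plus strand: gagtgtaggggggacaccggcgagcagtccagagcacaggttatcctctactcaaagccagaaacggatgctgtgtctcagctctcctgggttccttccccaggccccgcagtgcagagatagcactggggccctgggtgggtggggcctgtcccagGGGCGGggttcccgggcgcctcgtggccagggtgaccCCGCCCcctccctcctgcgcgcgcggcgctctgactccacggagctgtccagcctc
The 2 Chrna5 windows differ in base composition, with 40% G or C and 3 CpG in the first against 65.2%, 17 CpG and 4 GC boxes in the second. The Htr1b window held 52.4% G or C, 6 CpG and no GC box, the Chrm2 window 1 GC box and the Drd2 window 2. Over all members, 27 of 53 windows (50.9%) held a GC box, against 32.7% of the 32851 windows of the same length in the RefSeq table. The cyclic AMP response element TGACGTCA was in 0 member windows and in 1.55% of all, the E-box CACGTG in 5.66% and 6.02%, the TATA box TATAAA in 3.77% and 12.4%, and the homeodomain core TAATTA in 5.66% and 4.84%, each searched on both strands. These are matches of letters, not measured binding. By GENCODE M21 on GRCm38, the genes themselves lie on chromosome 9 from 81628291 to 81633828 (Htr1b), from 54980880 to 55007779 (Chrna5) and from 49340627 to 49408177 (Drd2), and on chromosome 6 from 36388084 to 36528414 (Chrm2).

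The 3 WT populations differed in the levels of many of these receptors. By edgeR, 33 of the 50 tested members differed between CamK and Grik (22 higher and 11 lower in CamK) at an adjusted p under 0.05, against 42.0% of all 18823 genes tested (20.9% higher and 21.1% lower). Between CamK and SST 35 differed (18 higher and 17 lower in CamK), against 60.1% of all genes (29.5% higher and 30.5% lower), and between Grik and SST 36 differed (9 higher and 27 lower in Grik), against 57.3% of all genes (28.1% higher and 29.2% lower). The member shares were 66.0, 70.0 and 72.0%. The median size of the log2 fold change was 1.08, 1.32 and 1.44 over the members and 0.34, 0.54 and 0.51 over all genes. The median signed change over the members was 0.53, 0.00 and -0.84, against 0.01, -0.02 and -0.03 over all genes, so the median member was lower in Grik than in either other population.

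In CamK, 10 tested members were called above both other populations (10 of 50, against 11.2% of all genes): Htr1a, Htr1b, Htr5b, Adra2c, Adrb1, Drd5, Hrh1, Chrm5, Chrna4 and Chrna5. Grik was above both others for 5 members (5 of 50, against 10.6% of all genes): Htr4, Htr6, Adra1d, Adora1 and Chrna1. In SST 15 members stood above both others (15 of 50, against 21.0% of all genes): Htr1d, Htr2a, Htr2b, Htr3a, Htr7, Adra1a, Adra1b, Drd2, Hrh2, Hrh3, Chrm2, Chrna2, Chrna6, Chrnb2 and Chrnb3. Adora2a, Adra2a, Adrb3, Chrnb1, Chrnd, Chrng and Htr1f passed the threshold in no WT contrast, and of these Adra2a alone had a WT group mean above 2 CPM. In whole-population RNA, fewer cells with a transcript and less of it per cell cannot be told apart.

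**Figure D1:**
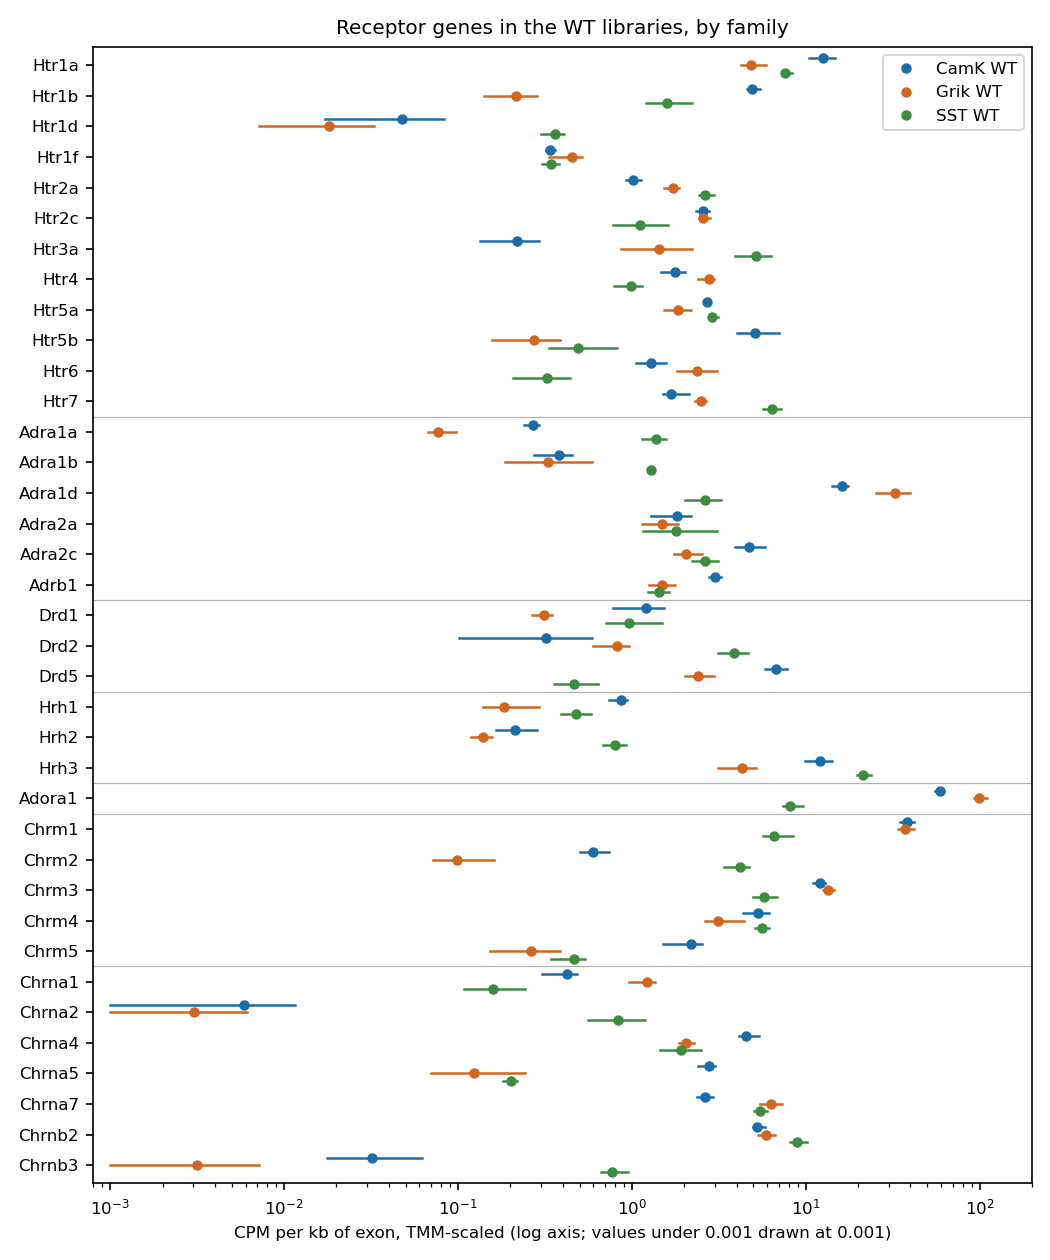
Level per exon length, as TMM-scaled CPM per kb of exon on a log axis, of the 37 members with a WT group mean of at least 1 CPM. Dots are means and bars the range over 4 WT libraries of CamK (blue), Grik (orange) and SST (green), and grey lines separate the families. Adora1 is the highest in CamK and Grik and Hrh3 in SST.

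Adenosine receptors were represented almost wholly by Adora1, the Gi-coupled A1 receptor that damps glutamate release. Adora1 was measured at 352, 320.2, 340.4 and 358 CPM in the CamK WT libraries, 534, 544, 638 and 589 in Grik WT and 43.0, 55.6, 45.7 and 44.2 in SST WT. The ranges did not overlap, with every Grik library highest and every SST library lowest. It was lower in CamK than in Grik (log2 fold change -0.75 ± 0.12 SE, edgeR adjusted p = 1.92e-05) and higher in CamK than in SST (log2 fold change 2.86 ± 0.13 SE, edgeR adjusted p = 2.96e-15). Per kb of exon it was the highest of all members in CamK (59.3 ± 2.92 CPM per kb, SD, n = 4) and in Grik (99.6 ± 8.27), and the third in SST (8.15 ± 0.997). Its SST level was 13.8% of that in CamK and 8.19% of that in Grik, beside 8.72 and 5.34% for the excitatory marker Slc17a7 and 17.9 and 15.9% for Camk2a. The part of excitatory RNA in the SST values was not tested. Adora1 shares 1162 of 5785 exon bases with Mybph on the other strand, and the strand setting of the counts is not given. Adora2a and Adora2b, the Gs-coupled A2 receptors, had WT group means of no more than 0.287 CPM.

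Among serotonin receptors, CamK cells stood out by Htr1b, Htr5b and Htr1a, and SST cells by Htr3a, Htr7 and Htr2a. Htr1b, the Gi-coupled receptor found on axon terminals, was at 22.3, 21.7, 25.7 and 22.4 CPM in the CamK WT libraries, 0.664, 1.18, 0.916 and 1.34 in Grik WT and 7.22, 5.73, 6.6 and 10.4 in SST WT. No 2 populations overlapped, and the CamK excess over Grik was the largest positive change of any member in that contrast (log2 fold change 4.49 ± 0.27 SE, edgeR adjusted p = 8.72e-12). Against SST the excess was smaller (1.62 ± 0.23 SE on the log2 scale). Htr1b shares 852 of 4724 exon bases with the opposite-strand gene D430036J16Rik.

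Htr5b, a receptor that is a pseudogene in humans, followed the same pattern at 7.75, 8.77, 13.6 and 9.54 CPM in the CamK WT libraries, 0.401, 0.301, 0.744 and 0.668 in Grik WT and 0.849, 1.59, 0.65 and 0.725 in SST WT. All CamK libraries lay above all others, while Grik and SST overlapped (log2 fold change 4.23 ± 0.34 SE, edgeR adjusted p = 5.9e-10 against Grik, and 3.38 ± 0.32 against SST). Its relative Htr5a did not follow it: Htr5a was at 14.4 ± 0.338 CPM in CamK, 9.87 ± 1.75 in Grik and 15.5 ± 0.82 in SST (SD, n = 4), and CamK and SST were not called different. Htr1a, the Gi-coupled receptor of pyramidal somata and dendrites, was the most abundant serotonin receptor per length in every WT population, at 12.5 ± 1.99 CPM per kb in CamK, 4.85 ± 0.76 in Grik and 7.6 ± 0.469 in SST. It made up 36.7, 23 and 25.4% of the summed serotonin receptor level.

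Htr3a, the 5-HT3 channel subunit, was at 0.605, 0.277, 0.441 and 0.503 CPM in the CamK WT libraries, 1.8, 3.0, 2.55 and 4.65 in Grik WT and 11.3, 13.2, 10.6 and 8.22 in SST WT. The 3 populations were fully separated, lowest in CamK (log2 fold change -2.71 ± 0.33 SE, edgeR adjusted p = 5.65e-07 for CamK against Grik, and -4.56 ± 0.34 for CamK against SST). Htr3b, the subunit that joins Htr3a in heteromeric channels and lies 23908 bases from it on chromosome 9, was not tested, with WT means of 0.0126 CPM or less. Htr1d, a Gi-coupled receptor, was found at 1.16, 0.967, 1.19 and 1.31 CPM in SST WT, and at 0.0573, 0.0464, 0.0229 and 0.105 in Grik WT, where most values lie within a few reads of the floor. SST libraries were all above Grik libraries (log2 fold change -4.29 ± 0.54 SE, edgeR adjusted p = 2.21e-07 for Grik against SST).

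Htr6 and Htr4, both Gs-coupled, were highest in Grik. Htr6 was at 4.26, 4.81, 7.26 and 5.98 CPM in Grik WT, 2.82, 2.48, 3.69 and 3.1 in CamK WT and 0.617, 0.914, 1.03 and 0.483 in SST WT, with no overlap between populations (log2 fold change 2.88 ± 0.21 SE, edgeR adjusted p = 9.04e-12 for Grik against SST). Htr4 averaged 13.6 ± 1.22 CPM in Grik, 8.64 ± 1.08 in CamK and 4.87 ± 0.736 in SST. Htr7, the third Gs-coupled type, went the other way and was at 21.8 ± 2.09 CPM in SST, 8.49 ± 0.584 in Grik and 5.75 ± 1.0 in CamK, each pair called different. Of the Gq-coupled types, Htr2a was highest in SST (14.9 ± 1.28 CPM) and Htr2c lowest there (10.3 ± 3.28 CPM, against 23.9 ± 2.12 in CamK and 23.9 ± 1.65 in Grik). Htr2b and Htr1f stayed near or below 1 CPM. In all, 9, 11 and 12 of the 13 tested serotonin receptors were called in the CamK to Grik, CamK to SST and Grik to SST contrasts, where 42.0, 60.1 and 57.3% of all genes were.

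The dopamine receptors exchanged places between populations. Drd5, the Gs-coupled D5 receptor, was at 24.7, 18.3, 21.3 and 21.1 CPM in the CamK WT libraries, 6.63, 6.4, 7.96 and 9.33 in Grik WT and 1.12, 1.3, 1.38 and 2.02 in SST WT. The groups did not overlap, and the CamK excess over SST was the largest positive one of that contrast (log2 fold change 3.87 ± 0.18 SE, edgeR adjusted p = 4.64e-15). Drd2, the Gi-coupled D2 receptor, was at 11.0, 7.93, 8.79 and 11.9 CPM in SST WT, 1.52, 2.11, 2.45 and 2.32 in Grik WT and 0.473, 1.05, 0.26 and 1.5 in CamK WT. SST was far above the others, and Grik lay just above CamK, whose highest library (1.5) nearly met the lowest of Grik (1.52). The changes were -3.59 ± 0.33 for CamK against SST and -1.35 ± 0.32 for CamK against Grik (SE, log2, edgeR adjusted p = 2.7e-09 and 0.00159). With a non-neuronal marker score as a covariate, the CamK to Grik difference was -1.14 and no longer passed the threshold (edgeR adjusted p = 0.132). The score was 1.29 to 1.78 in CamK WT and 2.62 to 2.98 in Grik WT, so it cannot be fully separated from the population. Calb2, the mossy cell marker, was at 311 to 347 CPM in Grik WT and 7.48 to 15.8 in CamK WT, and its part in the Drd2 value was not tested.

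Per length, Drd5 made up 81.4, 67.0 and 8.69% of the dopamine receptor level in CamK, Grik and SST, and Drd2 3.84, 23 and 73.3%. Drd1, the other Gs-coupled type, took 14.4, 8.93 and 17.8% and was lowest in Grik (1.13 ± 0.145 CPM, against 4.34 ± 1.36 in CamK and 3.48 ± 1.3 in SST). Markers of striatal projection neurons, which carry Drd1 or Drd2, summed to 83.0 to 108 CPM in CamK WT, 27.6 to 32.8 in Grik WT and 18.9 to 39.8 in SST WT. Of the 4 markers, 3 were called lower in SST than in CamK and 0 higher, while 2 were called higher and 2 lower in SST than in Grik. The part of such RNA in the dopamine receptor values was not tested. Drd5 shares 1531 of 3152 exon bases with Gm26560 on the other strand.

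Histamine receptors were lowest in Grik. Hrh3, the Gi-coupled H3 receptor that acts as an autoreceptor and release brake, was at 74.1, 66.8, 65.5 and 61.8 CPM in SST WT, 31.2, 35.2, 41.6 and 44.3 in CamK WT and 9.8, 12.9, 16.2 and 15.3 in Grik WT. The 3 ranges were separate, and Hrh3 was the highest member per length in SST (21.3 ± 1.64 CPM per kb). It was lower in Grik than in SST (log2 fold change -2.30 ± 0.13 SE, edgeR adjusted p = 1.16e-13) and made up 91.8% or more of the histamine receptor level in each WT population. Hrh1 (Gq) was highest in CamK, at 3.86 ± 0.405 CPM against 0.817 ± 0.324 in Grik and 2.14 ± 0.376 in SST. Hrh2 (Gs) was highest in SST, at 4.72 ± 0.659 CPM against 1.27 ± 0.303 in CamK and 0.826 ± 0.106 in Grik. All 3 tested histamine receptors were called in all 3 WT contrasts, where 42.0, 60.1 and 57.3% of all genes were.

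Noradrenaline receptors were dominated by Adra1d in the pyramidal populations. This Gq-coupled alpha1 receptor was at 29.2, 26.9, 33.4 and 33.3 CPM in the CamK WT libraries, 48.1, 59.1, 75.0 and 66.6 in Grik WT and 5.08, 6.21, 3.84 and 4.75 in SST WT. Every Grik library was above every CamK library and every CamK library above every SST library (log2 fold change 3.65 ± 0.15 SE, edgeR adjusted p = 4.96e-16 for Grik against SST). It made up 60.8, 85.3 and 23.1% of the noradrenaline receptor level per length in CamK, Grik and SST. The other alpha1 genes were highest in SST: Adra1a was at 12.2, 12.3, 13.7 and 10.01 CPM in SST WT, 2.56, 2.1, 2.28 and 2.46 in CamK WT and 0.847, 0.626, 0.584 and 0.633 in Grik WT (-4.16 ± 0.16 for Grik against SST), and Adra1b at 4.37 ± 0.148 CPM in SST, with means of 1.28 or less in the others. Adra2c (Gi) and Adrb1 (Gs) were highest in CamK, at 16.2 ± 2.91 and 10.2 ± 0.684 CPM. Adra2a (Gi) was at 8.82 ± 2.0, 7.25 ± 1.53 and 8.66 ± 4.28 CPM in CamK, Grik and SST and was called in no WT contrast. Adrb3 and Adra2b had WT means of 0.374 CPM or less. Of the 9 tested noradrenaline receptors, 55.6% were called in each WT contrast, where 42.0, 60.1 and 57.3% of all genes were.

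**Figure D2:**
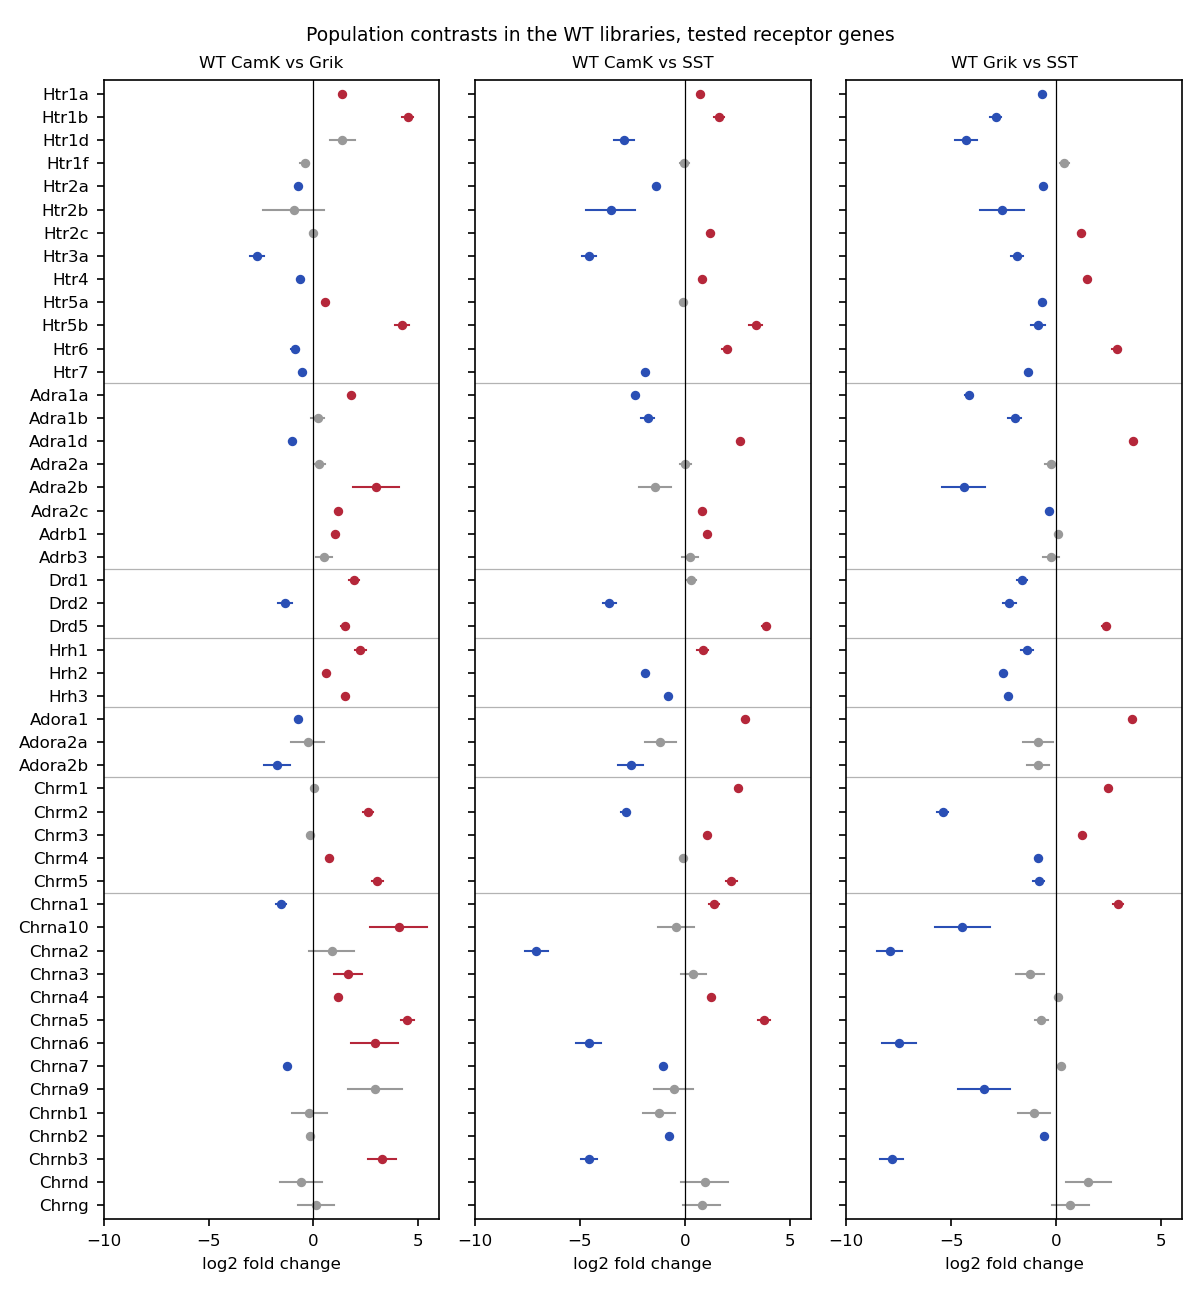
Log2 fold change (x axis) with its standard error (bar) for tested members in each WT contrast, by family. Red marks genes called higher in the first population, blue genes called lower and grey genes not called at an edgeR adjusted p of 0.05. The Grik to SST panel holds 27 blue and 9 red points.

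The Gq-coupled muscarinic receptors Chrm1, Chrm3 and Chrm5 were higher in CamK than in SST, and the Gi-coupled Chrm2 was lower. Chrm1, the Gq-coupled M1 receptor that depolarises pyramidal cells, was at 224, 226, 273 and 264 CPM in the CamK WT libraries, 219.7, 232, 274 and 239 in Grik WT and 38.3, 54.5, 41.9 and 36.7 in SST WT. The pyramidal populations overlapped and SST lay below both (2.53 ± 0.11 for CamK against SST, and 0.03 ± 0.10 for CamK against Grik). Chrm2, the Gi-coupled M2 receptor known as a release brake of interneuron terminals, was at 20.4, 27.1, 25.4 and 28.5 CPM in SST WT, 3.17, 3.69, 3.05 and 4.47 in CamK WT and 0.435, 0.487, 0.492 and 0.973 in Grik WT. No groups overlapped, and Grik was far below SST (log2 fold change -5.41 ± 0.25 SE, edgeR adjusted p = 5.99e-15). Chrm2 took 18.5% of the muscarinic level per length in SST, 1.03% in CamK and 0.182% in Grik, and Chrm1 29.1, 65.4 and 68.6%.

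Chrm5, a Gq-coupled type, marked CamK, at 4.06, 4.05, 3.46 and 2.43 CPM in the CamK WT libraries, 0.389, 0.243, 0.618 and 0.434 in Grik WT and 0.857, 0.829, 0.548 and 0.755 in SST WT. CamK stood apart from both others, which overlapped (log2 fold change 3.05 ± 0.27 SE, edgeR adjusted p = 1.74e-09 against Grik). Chrm3 (Gq) was about as high in CamK (74.8 ± 4.74 CPM) as in Grik (84.5 ± 6.32), a difference that was not called, and lower in SST (35.8 ± 5.54). Chrm4 (Gi), at 7.46, 6.24, 8.87 and 8.03 CPM in the CamK WT libraries, 3.89, 3.98, 6.36 and 3.82 in Grik WT and 7.96, 8.85, 8.15 and 7.31 in SST WT, was lowest in Grik apart from 1 library and was not called between CamK and SST. The SST level of Chrm1 was 17.4% of that in CamK, where the 4 excitatory markers were at 4.82 to 17.9%, and its part from excitatory RNA was not tested. Markers of cholinergic neurons (Chat, Slc5a7, Slc18a3) averaged below 1 CPM in every group.

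The widest single changes in both SST contrasts were of the nicotinic subunit Chrna2 (log2 fold change -7.07 for CamK and -7.93 for Grik). Over the tested nicotinic subunits the median size was 1.14 and 1.4, against 1.32 and 1.44 over all tested members. Of the 14 tested, 57.1, 57.1 and 50% were called in the CamK to Grik, CamK to SST and Grik to SST contrasts. Of all genes, 42.0, 60.1 and 57.3% were. Chrna2, an alpha subunit, was at 2.79, 2.12, 3.17 and 4.52 CPM in SST WT, 0.011, 0, 0.0339 and 0.0437 in CamK WT and 0, 0.0232, 0.0229 and 0 in Grik WT. In reads, that was 1286 over the SST WT libraries against 8 in CamK WT and 4 in Grik WT. The ratio of depth-scaled reads was 142 for SST over CamK (95% exact interval 71.9 to 330, counting error only) and 272 over Grik (106 to 1000). Its share of the nicotinic level per length in SST was 4.46%.

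Chrnb3 and Chrna6, an accessory beta and an alpha subunit that join in the same receptors, lie 3481 bases apart on chromosome 8 and exceeded 0.394 CPM in SST libraries alone, WT or labelled cKO. Chrnb3 was at 4.24, 6.03, 4.49 and 4.78 CPM in SST WT, 0.187, 0.122, 0.113 and 0.394 in CamK WT and 0.0458, 0, 0.0343 and 0 in Grik WT. The reads were 1979, 74 and 7, a ratio of 23.6 for SST over CamK (18.7 to 30.2) and 240 over Grik (116 to 597). Chrna6 averaged 0.763 ± 0.30 CPM in SST, from 304 reads against 11 in CamK WT (ratio 24.4, 13.5 to 49.4) and 1 in Grik WT (ratio 258, 45.9 to 10200). Habenula markers, from a region that uses these subunits, summed to 12.5 to 18.2 CPM in SST WT against 35.1 to 51.2 in CamK WT and 109 to 118 in Grik WT, a sum carried by Nwd2. Of the 3 tested, 2 were called lower in SST and 1 higher in each contrast with SST, namely Tac2 against CamK and Gpr151 against Grik. The defining marker Pou4f1 averaged 0.0232 CPM or less in each WT group, and the part of such RNA in these values was not tested.

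Chrna5, an accessory alpha subunit that adds to receptors of Chrna4 and Chrnb2, was nearly restricted to CamK, with 8.53, 7.5, 9.08 and 9.42 CPM in the CamK WT libraries, 0.218, 0.313, 0.263 and 0.762 in Grik WT and 0.566, 0.627, 0.68 and 0.654 in SST WT. CamK lay above both others, which overlapped (log2 fold change 4.47 ± 0.32 SE, edgeR adjusted p = 4.67e-11 against Grik, and 3.77 ± 0.30 against SST). Its partners moved less. Chrna4 was at 21.3, 20.7, 22.3 and 27.2 CPM in the CamK WT libraries, 9.37, 9.58, 11.5 and 10.8 in Grik WT and 7.34, 10.2, 8.3 and 12.5 in SST WT, highest in CamK (1.15 ± 0.14 against Grik). Chrnb2 was at 44.0 ± 3.49, 49.3 ± 4.86 and 74.1 ± 7.7 CPM in CamK, Grik and SST, highest in SST. It shares 1365 of 8380 exon bases with Adar on the other strand. The neighbours of Chrna5 on chromosome 9, Chrna3 (2331 bases away) and Chrnb4, had WT means of 0.149 CPM or less. In WT, Chrna3 was called higher in CamK than in Grik (1.66 ± 0.66 SE, log2, edgeR adjusted p = 0.0443). That call rests on 54 reads against 16, with overlapping ranges. Among libraries labelled cKO Chrna3 was not called in this contrast, while Chrna5 was. Chrnb4 was not tested.

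Chrna7, the subunit of homomeric alpha7 channels, was at 12.7, 11.3, 13.1 and 10.7 CPM in the CamK WT libraries, 28.6, 27.8, 32.9 and 24.4 in Grik WT and 25.1, 23.5, 22.6 and 27.1 in SST WT. CamK was below both others (log2 fold change -1.25 ± 0.11 SE, edgeR adjusted p = 1.08e-09 against Grik), which overlapped. Chrna1, best known from the muscle receptor, was at 5.96, 4.22, 5.76 and 5.54 CPM in Grik WT, 1.96, 1.34, 2.11 and 1.99 in CamK WT and 0.48, 1.06, 0.609 and 0.654 in SST WT, with 3 separate ranges (-1.54 ± 0.23 for CamK against Grik, and 2.94 ± 0.24 for Grik against SST). The other muscle subunits Chrnb1, Chrnd and Chrng had WT group means of 0.139 CPM or less and were called in no WT contrast. Per length, Chrnb2, Chrna4, Chrna7 and Chrna5 made up 33.2, 28.7, 16.8 and 17.4% of the nicotinic level in CamK, and 47.5, 10.2, 29.4 and 1.09% in SST. In Grik, Chrna7 led with 40.1%, ahead of Chrnb2 with 37.5%.

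**Figure D3:**
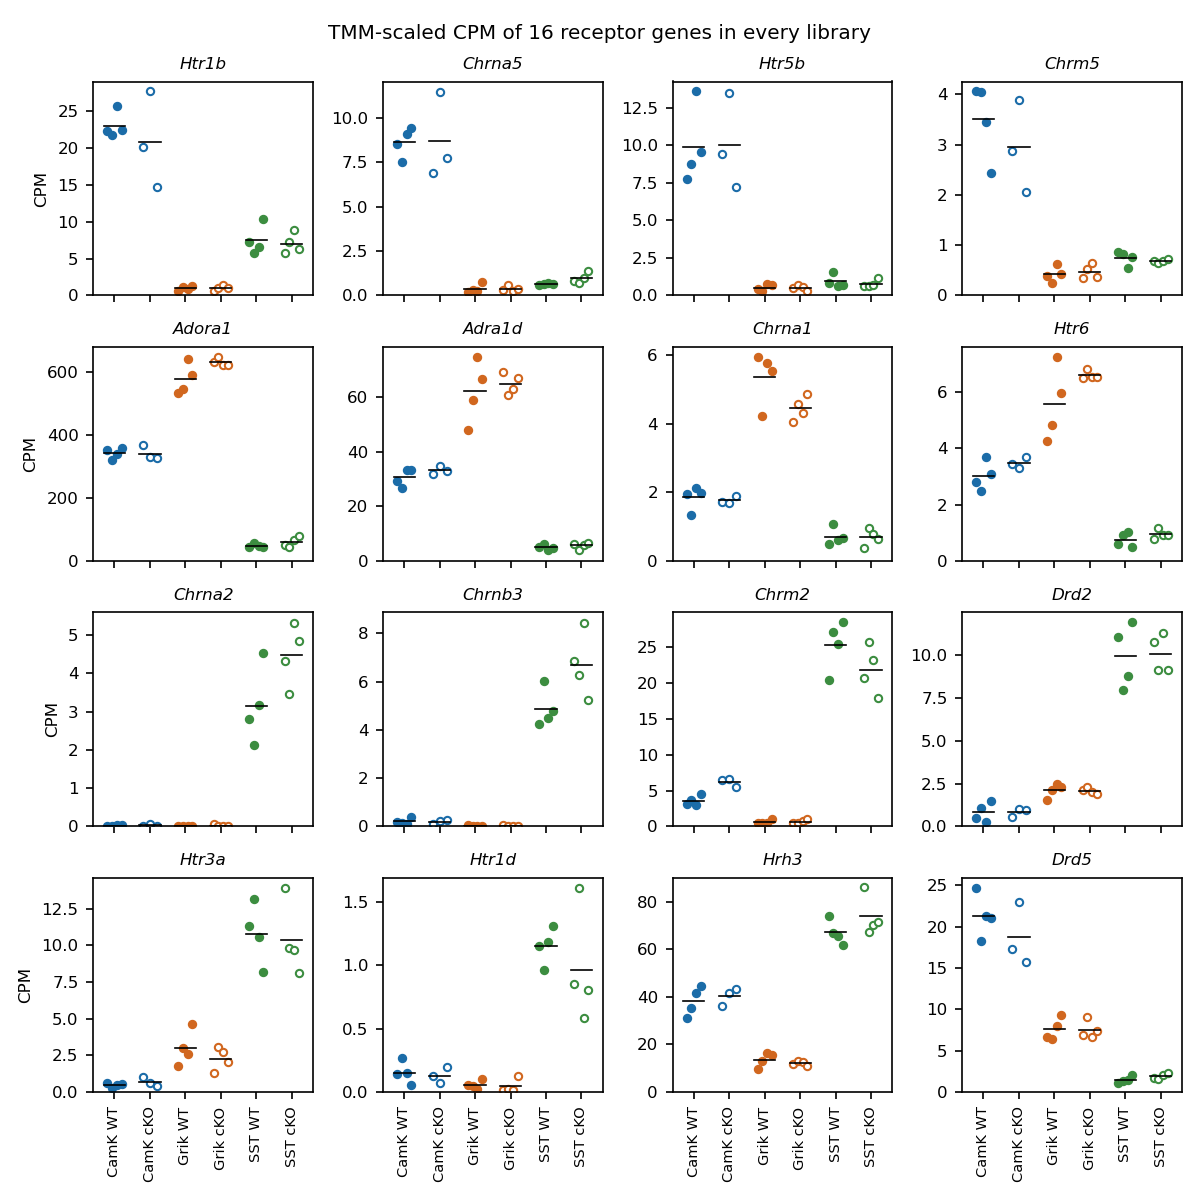
TMM-scaled CPM (linear axes from 0) of 16 members in every library, with WT as filled and libraries labelled cKO as open circles and the group mean as a bar. Htr1b, for example, was at 14.8 to 27.7 CPM in the CamK libraries labelled cKO and 21.7 to 25.7 in CamK WT, above every Grik and SST library.

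Grouped by signalling, Gi-coupled receptors summed to 105 ± 3.97, 119 ± 11.1 and 60.4 ± 1.36 CPM per kb in CamK, Grik and SST WT (SD, n = 4). Adora1 carried this order, and without it the sums were 45.4 ± 1.43, 19.3 ± 2.9 and 52.3 ± 1.74, lowest in Grik and highest in SST. Gq-coupled receptors summed to 73.4 ± 5.72, 88.6 ± 10.5 and 22.4 ± 2.09, Gs-coupled ones to 16.2 ± 0.927, 12.3 ± 1.04 and 11.7 ± 0.583 and ion channel subunits to 16.1 ± 1.24, 17.2 ± 1.39 and 23.8 ± 1.72. The Gq sum was thus 73.4 in CamK, 88.6 in Grik and 22.4 in SST, carried by Chrm1, Adra1d and Chrm3, while the channel sum was highest in SST. Of 13 tested Gi members, 8 were higher and 2 lower in CamK than in Grik (20.9 and 21.1% of all genes), 4 higher and 4 lower in CamK than in SST (29.5 and 30.5%), and 1 higher and 10 lower in Grik than in SST (28.1 and 29.2%). Of 10 tested Gq members, 3 were higher and 2 lower in CamK than in Grik, and all 10 were called in each contrast with SST (60.1% of all genes for CamK and 57.3% for Grik). Of 11 tested Gs members, 72.7, 63.6 and 54.5% were called in the CamK to Grik, CamK to SST and Grik to SST contrasts. For 15 tested channel subunits the shares were 60, 60 and 53.3%, and for all genes 42.0, 60.1 and 57.3%. Htr5b was assigned to no class.

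The population contrasts were also made among the libraries labelled cKO, which were filtered, scaled and fitted together with the WT libraries. There 31 members differed between CamK and Grik (35.7% of all genes), 34 between CamK and SST (56.4%) and 34 between Grik and SST (57.9%). Called in the same direction in WT and cKO were 30, 33 and 31 members, which is 90.9, 94.3 and 86.1% of the WT calls and 96.8, 97.1 and 91.2% of the cKO calls, and none was called in opposite directions. The matching shares over all genes were not computed, so this agreement is not shown to be particular to the receptors. Between CamK and Grik, Adora2b, Chrna3 and Chrna10 were called in WT alone and Adra1b in libraries labelled cKO alone. Between CamK and SST, Adora2b and Htr2b were called in WT alone. Between Grik and SST, Chrm5, Chrna9, Chrna10, Htr2b and Htr5b were called in WT alone and Chrna4 and Chrna5 in libraries labelled cKO alone. A difference between the genotypes in these contrasts was not called for any of them. Htr2b, called above both others in SST WT at a mean of 0.11 CPM, was called in neither SST contrast among libraries labelled cKO. Adora2a, for example, was called higher in SST than in either pyramidal population in cKO libraries alone, where its SST values were 0.322, 0.135, 0.42 and 2.22 CPM. The library SST cKO 7 was far above the rest, and it also had the highest sum of striatal projection neuron markers among SST libraries (56.5 CPM, against 18.9 to 39.8 in the others). The part of such RNA in the Adora2a value was not tested.

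The library SST WT 2 stood apart by its defining marker, since Sst was at 159 CPM there against 554 to 1720 in the other SST WT libraries. Without it, 35 members were called between CamK and SST and 34 between Grik and SST, where all libraries gave 35 and 36. The share of all genes called without it is not given here. Gad1 in that library was at 3090 CPM, the highest of its group.

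No receptor gene was called between libraries labelled cKO and WT. In each population 0 of 50 members passed an edgeR adjusted p of 0.05, against 0.0106% of all genes in CamK, in Grik and in SST. At an unadjusted p under 0.05 there were 5 members in CamK, 1 in Grik and 6 in SST, where 7.05, 4.88 and 5.85% of all genes reached it. Averaged over populations the count was also 0 (0.0106% of all genes), with 8 members at an unadjusted p under 0.05 (6.66% of all genes). DESeq2 and limma-voom called 0 members as well in each of these comparisons. For the 35 members with a mean of at least 1 CPM, the log2 fold changes ran in CamK from -0.43 to 0.79, in Grik from -0.40 to 0.53 and in SST from -0.27 to 0.60, with a median size of 0.15, 0.13 and 0.16.

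**Figure D4:**
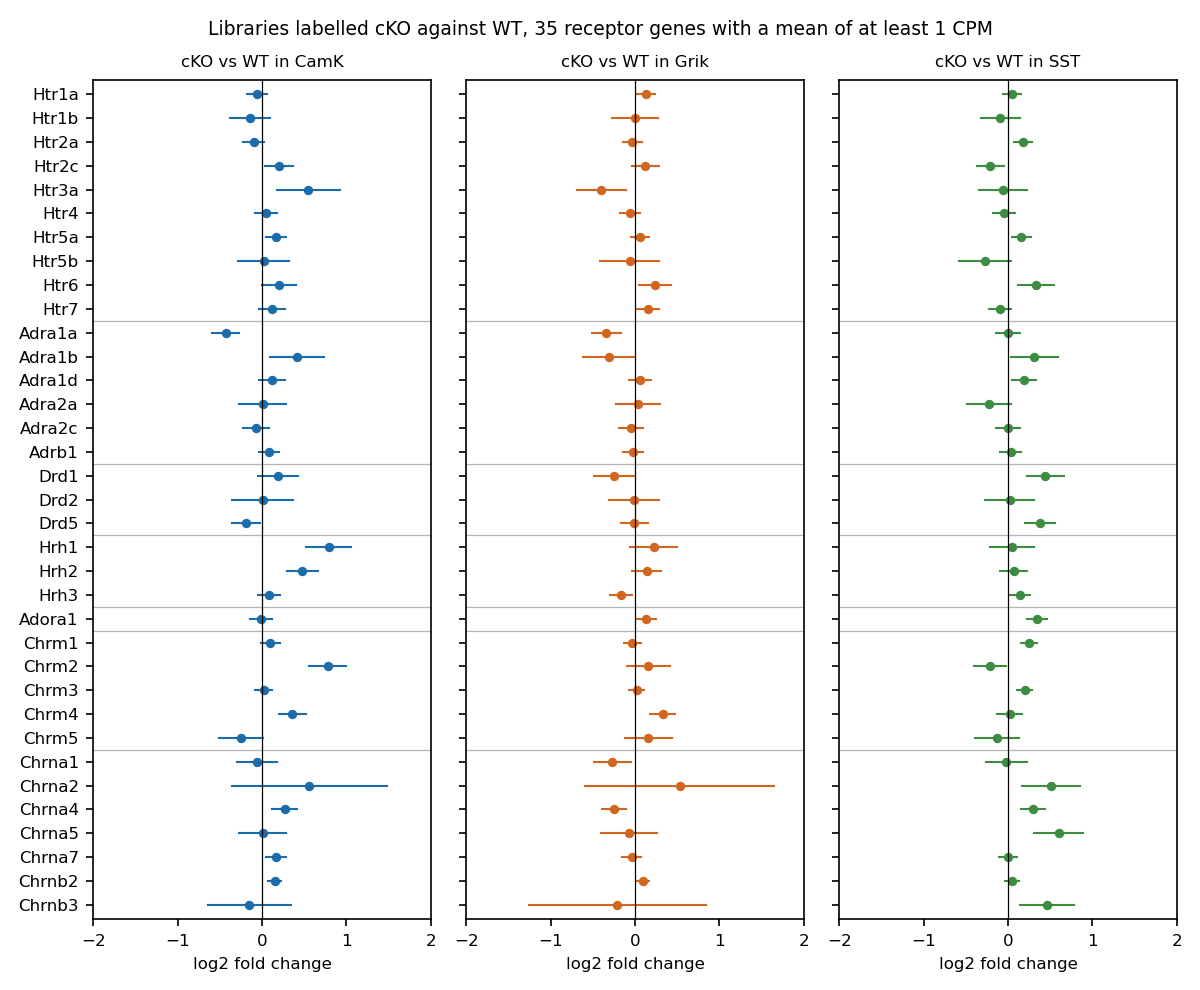
Log2 fold change of libraries labelled cKO against WT (x axis) with its standard error (bar), for the 35 members with a mean of at least 1 CPM, in CamK, Grik and SST. None was called, and the points lie between -0.43 and 0.79.

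The members with the lowest unadjusted p in CamK were Chrm2 and Hrh1. Chrm2 was at 6.42, 6.6 and 5.47 CPM in the 3 libraries labelled cKO and 3.17, 3.69, 3.05 and 4.47 in the 4 WT libraries, so that all cKO values lay above all WT values (log2 fold change 0.78 ± 0.22 SE, edgeR unadjusted p = 0.00166, adjusted p = 0.489). Hrh1 was at 7.7, 6.18 and 6.12 CPM in CamK cKO and 3.29, 4.15, 3.85 and 4.14 in WT, again without overlap (log2 fold change 0.79 ± 0.27 SE, edgeR unadjusted p = 0.00712, adjusted p = 0.611). Some markers of other cell types also stood higher in CamK cKO than in CamK WT, and others did not. The 4 endothelial markers summed to 1.55 to 3.54 CPM in CamK cKO and 0.656 to 1.12 in CamK WT, without overlap. The astrocyte marker Aldh1l1 was at 2.38 to 4.56 and 0.983 to 2.03 CPM, while the astrocyte list (19.9 to 31.5 and 9.01 to 21) and the oligodendrocyte list (217 to 279 and 144 to 219) overlapped. The microglia list (1.98 to 5.13 and 2.03 to 3.87) and the choroid plexus list (25.5 to 71.4 and 43.1 to 76.1) overlapped too. None of these markers was called by edgeR, and their part in the receptor values was not tested. In Grik the same genes were at 0.421, 0.515, 0.702 and 1.02 (Chrm2) and 0.421, 1.41, 1.02 and 0.945 CPM (Hrh1) in cKO libraries and overlapped WT.

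In Grik the lowest unadjusted p belonged to Chrm4, at 4.83, 6.25, 6.39 and 5.21 CPM in cKO libraries and 3.89, 3.98, 6.36 and 3.82 in WT (log2 fold change 0.33 ± 0.15 SE, edgeR unadjusted p = 0.0362, adjusted p = 0.992). The ranges overlapped because Grik WT 5 lay among the cKO values. Htr1f, a Gi-coupled serotonin receptor, was next, at 0.724, 0.784, 0.645 and 1.26 CPM in cKO and 1.27, 1.19, 1.33 and 0.856 in WT, also overlapping (-0.45 ± 0.22 SE, log2, edgeR adjusted p = 0.992).

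In SST the lowest were Adora1 and Chrm1, the 2 highest members per length in the pyramidal populations. Adora1 was at 49.7, 44.4, 67.2 and 78.2 CPM in SST cKO and 43.0, 55.6, 45.7 and 44.2 in WT (log2 fold change 0.34 ± 0.12 SE, edgeR unadjusted p = 0.00881, adjusted p = 0.833), and Chrm1 at 45.0, 47.2, 51.9 and 59.9 and 38.3, 54.5, 41.9 and 36.7 (log2 fold change 0.25 ± 0.10 SE, edgeR unadjusted p = 0.024, adjusted p = 0.833). Both overlapped, and SST cKO 7 was the highest library for each. The excitatory marker Slc17a7 was at 85.1, 67.8, 124 and 194 CPM in the same SST cKO libraries and 71.8, 121, 72.9 and 67.7 in SST WT, with SST cKO 7 highest there too. The 4 excitatory markers summed to 734 to 1040 CPM in cKO and 763 to 891 in WT. Glial markers were also highest in SST cKO 7. Oligodendrocyte markers summed to 428, 250, 945 and 1050 CPM in SST cKO and 296, 672, 388 and 599 in WT. Astrocyte markers summed to 59.7, 48.4, 105 and 134 CPM in SST cKO and 62.2, 105, 61.2 and 53.6 in WT. None of these markers was called by edgeR. Without SST cKO 7, the change was 0.19 for Adora1 and 0.17 for Chrm1 (edgeR adjusted p = 1 for each). The part of excitatory or glial RNA in these values was not tested.

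Averaged over populations, the lowest unadjusted p belonged to Adra1a, Chrm4 and Hrh2. Adra1a was at 1.96, 1.9 and 1.39 CPM in CamK cKO, 0.397, 0.65, 0.564 and 0.507 in Grik cKO and 11.6, 13.8, 12.1 and 10.8 in SST cKO, below WT in CamK and overlapping it in Grik and SST (log2 fold change -0.26 ± 0.09 SE, edgeR unadjusted p = 0.00918, adjusted p = 0.68). The averaged changes of Chrm4 and Hrh2 were 0.24 ± 0.09 and 0.23 ± 0.10 (SE, log2, edgeR adjusted p = 0.698 and 0.724). Hrh2 was at 1.79, 1.76 and 1.78 CPM in CamK cKO and 0.98, 1.22, 1.19 and 1.7 in CamK WT, apart by a narrow margin.

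No member was called by edgeR for a difference in the cKO effect between populations. The counts were 0 of 50 for CamK against Grik (0.00531% of all genes called), for CamK against SST (0.0% of all genes) and for Grik against SST (0.0106%), with 1, 2 and 3 members at an unadjusted p under 0.05 (6.5, 7.85 and 3.86% of all genes). DESeq2 and limma-voom gave 0 members in each. The lowest unadjusted p in each was for Chrna4, Chrm2 and Chrna4. Chrna4 was at 26.9, 29.5 and 26.4 CPM in CamK cKO, 8.12, 9.86, 9.69 and 6.92 in Grik cKO and 10.7, 10.7, 13.2 and 12.8 in SST cKO. Its effect in CamK minus that in Grik was 0.52 ± 0.20 and in Grik minus SST -0.56 ± 0.20 (SE, log2, edgeR adjusted p = 0.754 and 1). For Chrm2 the effect in CamK exceeded that in SST by 0.99 ± 0.29 (SE, log2, edgeR adjusted p = 0.597).

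Other genes of these pathways were listed by function. Of 28 tested genes for making, clearing and transporting the ligands, 2 were higher and 13 lower in CamK than in Grik, 3 higher and 12 lower in CamK than in SST, and 9 higher and 11 lower in Grik than in SST, against 42.0, 60.1 and 57.3% of all genes called in either direction. Ache, which breaks down acetylcholine, was at 139 ± 14.3 CPM in SST, 40.9 ± 6.55 in Grik and 25.0 ± 4.99 in CamK (SD, n = 4). Th, the first enzyme of catecholamine synthesis, was at 13.3 ± 5.26 CPM in SST, with means of 0.193 or less in the others, while Slc18a2, the vesicular monoamine transporter, was highest in Grik (4.27 ± 1.11 CPM). Slc29a1, an equilibrative transporter that clears adenosine, was at 3.58 ± 0.974 CPM in CamK, 11.6 ± 0.91 in Grik and 9.07 ± 1.68 in SST.

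Of the 10 G protein alpha subunits, 0 were higher and 3 lower in CamK than in Grik, 4 higher and 4 lower in CamK than in SST, and 6 higher and 3 lower in Grik than in SST (42.0, 60.1 and 57.3% of all genes in either direction). Gna14, of the Gq class, was at 26.6 ± 3.1 CPM in SST WT, with means of 0.0721 or less in the pyramidal populations (-8.50 ± 0.31 SE, log2, for Grik against SST). Gnal, of the Gs class, was at 309 ± 28.5 CPM in SST against 134 ± 27.6 in CamK and 129 ± 13.3 in Grik. Among 9 chaperones and modulators of nicotinic receptors, Lypd6 (137 ± 19.7 CPM in SST, 1.41 ± 0.612 in CamK, 1.62 ± 0.509 in Grik) and Lypd6b (81.0 ± 5.92, 2.22 ± 0.389 and 1.42 ± 0.536) were SST genes, Ly6e was highest in Grik (341 ± 60.7 CPM) and Lypd1 in CamK (194 ± 12.7 CPM). In these 3 lists edgeR called 0 of 47 tested genes between libraries labelled cKO and WT in CamK, Grik or SST, with 2, 2 and 4 at an unadjusted p under 0.05. Of all genes, 0.0106% were called in each and 7.05, 4.88 and 5.85% reached that p.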

How the data were processed

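Raw read counts per Ensembl gene for 23 libraries were deposited by the authors as 1 table in the form of STAR's gene counts, per the file headers. The submitters' processing notes name Trimmomatic, STAR and GRCm38, while the sources used here give no versions, annotation, strand setting or filters. Of 45706 gene IDs, 45143 matched GENCODE M21 on GRCm38. Reads naming no gene (12.4 to 18.4% of a library) were left out. Titles gave the population and genotype of each library.

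Genes kept by filterByExpr over 6 groups (18823) were scaled by TMM and fitted together with edgeR 4.0.16 in R 4.3.3 (glmQLFit, robust, 17 residual degrees of freedom), and p-values were adjusted by Benjamini-Hochberg over all genes per comparison (threshold 0.05). Standard errors were obtained as the size of the log2 fold change over the root of its F statistic. CPM are per 1000000 reads with TMM scaling, and per-length values divide by each 1000 bases of exon. Chi-square per degree of freedom between replicates was 8.27 or more, so no library was counted as a repeat of another. Of the members, 12 share exon bases with another gene, so their counts are uncertain. The function was tested on simulated data.

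Full values are given for the 4 largest called, non-overlapping changes per WT contrast and direction with at least 1 CPM, for the lowest p-values per genotype comparison and for the highest member per length. The members, lists and this rule were chosen with earlier results of these data known. Alternatives were relative log expression scaling, no low-count filter, at least 1 CPM in 3 libraries, DESeq2 1.42.0, limma-voom (limma 3.58.1) with sample weights, the compared populations fitted alone, a block for the replicate number, a non-neuronal marker score as covariate, and leaving out each library. Splicing was not analysed here, and the values of 1 member are not reported here.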

Additional observations from a re-analysis of the deposited data

Results flagged for a closer look

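In 6 of the 120 groups of 4 libraries examined over 24 members, 1 library lay far from the other 3, and chance alone would set apart about 1 group in 20, or 6 here. All 6 were in Grik. Chrm2 was at 0.973 CPM and Hrh1 at 1.30 CPM in the library Grik WT 6, against 0.435 to 0.492 and 0.618 to 0.684 in the other Grik WT libraries. Chrm4 was at 6.36 CPM in Grik WT 5, against 3.82 to 3.98 in the others, and this library makes the WT range overlap the libraries labelled cKO. Among libraries labelled Grik cKO, Chrna2 was at 0.0701 CPM in library 1 and 0 in the others, Htr1d at 0.127 CPM in library 4 against 0.0115 to 0.0224, and Htr6 at 6.81 CPM in library 2 against 6.51 to 6.54. The Chrna2 and Htr1d values rest on few reads.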

How the results depend on the processing

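All counts of called receptor genes stayed within 1.5 times their value under every alternative run and with each library left out. In WT they ranged over 27 to 34 (CamK against Grik), 32 to 36 (CamK against SST) and 32 to 39 (Grik against SST) over the alternatives, and over 28 to 33, 35 to 36 and 31 to 35 with a library left out. In libraries labelled cKO the alternatives gave 29 to 34, 31 to 36 and 31 to 34. The shares of all genes called in these fits are not given here. The comparisons of cKO with WT stayed at 0 called members in each alternative. Of 285 values of named members under the alternatives, 284 kept their direction and their side of the threshold, the exception being Drd2 in CamK against Grik with the non-neuronal score as covariate (-1.14, edgeR adjusted p = 0.132, against -1.35 and 0.00159), for which the cause was not tested. All 353 values with a library left out kept theirs. Same-numbered libraries of different groups had correlations of -0.222 to 0.296 in their deviations from the group means. Libraries with different numbers were not compared in this way, so these values cannot settle whether the numbers pair libraries. A fit with the replicate block called 34, 35 and 34 members in the WT contrasts and 0 between cKO and WT. Levels near 0.0342 CPM rest on about 3 reads, so calls of members such as Chrna10 (25 reads in CamK WT against 1 in Grik WT) rest on few reads.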
